A study of Homo sapiens with 2 samples.

Results

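Of the 19775 genes that were named singly by a probe set, 77 had a platform annotation symbol starting with MRPL or MRPS followed by a digit, the symbols of the mitochondrial ribosomal proteins. The rule uses the symbol and no measured value, but the group was taken up with earlier results of these data known. Of these, 50 were named MRPL, for the large subunit, and 27 were named MRPS, for the small subunit. The name rule also took in MRPL20-AS1, an antisense RNA, and MRPL45P2, a transcribed pseudogene, so 75 of the 77 genes encode proteins. Each gene is described by the brightest of its probe sets. It counts as detected where its level, the mean of both arrays, exceeds 0.92, which is the median level of the probe sets once the Affymetrix controls are left out. By this measure 76 of the 77 genes were detected, including all 75 that encode proteins. MRPL45P2, at 0.065 on the miR-941 array and 0.12 on the control array, was not.

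The RNA came from 293T, an established line derived from human embryonic kidney that carries the SV40 large T antigen. The miR-941 array (n = 1) held RNA precipitated with anti-Ago2, directed at a protein that carries microRNAs to target mRNAs, from cells given synthetic miR-941. The control array (n = 1) held RNA from cells given a scrambled oligo; its title calls it an Ago2 precipitate and its description speaks of mock transfection, while its antibody entry names nonimmune IgG beads. Both oligonucleotides were used at 30 nmol/l, and the protocol names both Lipofectamine 2000 and DharmaFECT as transfection reagents. If the antibody entry of the control holds, effects of the oligonucleotide cannot be told apart from those of the antibody. With 1 array per group there was no replicate error and no test, so each difference compares these 2 arrays and no more. Neither array held input RNA, so a difference in recovery by the precipitation cannot be told apart from a difference in the amount of mRNA per cell. The deposited values, 1 per probe set, were taken to be on the log2 scale, and each difference is the miR-941 array minus the control array.

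The sequence of miR-941 is shown because the groups are named by it. RefSeq lists 5 copies of its gene on chromosome 20 (GRCh38.p14, plus strand), and their mature products share 1 sequence of 23 bases; the first copy lies at chr20:63919495-63919517. Capitals mark the seed, bases 2 to 8, through which a microRNA chiefly recognises its targets.
hsa-miR-941: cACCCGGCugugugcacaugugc

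Mitochondrial ribosomes translate the few mRNAs encoded by the mitochondrial genome, all of which specify subunits of the respiratory chain and of ATP synthase. Their RNAs are encoded in the mitochondrion, while every protein of the large and small subunits is encoded in the nucleus, made by cytosolic ribosomes and imported. Part of these proteins have a bacterial counterpart, and many of the remainder are found only in mitochondria. The 5' and 3' control probe sets of the arrays differed between the precipitates: the ACTB 5' control read 6.49 on the miR-941 array and 7.15 on the control array, a difference of -0.66, against -0.045 at its 3' end, and the GAPDH controls had -0.19 at the 5' end and 0.050 at the 3' end. The part of this in the values below was not tested. Of 11 genes fixed as markers of 293T, 8 were detected, among them VIM (8.70 and 8.82 on the miR-941 and control arrays), NEFL (7.37 and 6.99) and STMN1 (6.15 and 5.71). PAX2, at 1.23 and 0.86 in that order, passed only narrowly, and KRT8 and LHX1 were below the detection level. Of 13 markers of other cell types 5 passed it. COL1A1 was the highest, at 2.48 on the miR-941 array and 2.72 on the control array. PECAM1, VWF, KRT5 and GFAP lay near the detection level, and PTPRC, CD3E and ALB were below it.

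Most mitochondrial ribosomal protein genes read a little above the control array on the miR-941 array. Of the 76 detected genes 60 were higher, 15 were lower and MRPL48 was equal. That is 78.9%, where 46.3% of all 13150 detected genes were higher. Of the latter, 6095 were higher, 5574 were lower and 1481 were equal, so equal values lower their share. The median difference was 0.12, a ratio of 1.08 between the miR-941 and the control array, and the quartiles were 0.027 and 0.23. Over all detected genes the median was 0.00. The quartiles of the members' levels were 6.31 and 7.50, and 71 of the 76 had a level above 5. Of the 1708 detected genes between these quartiles, 50.7% were higher, with a median of 0.0092. That comparison range was added after the data were seen.

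**Figure D1:**
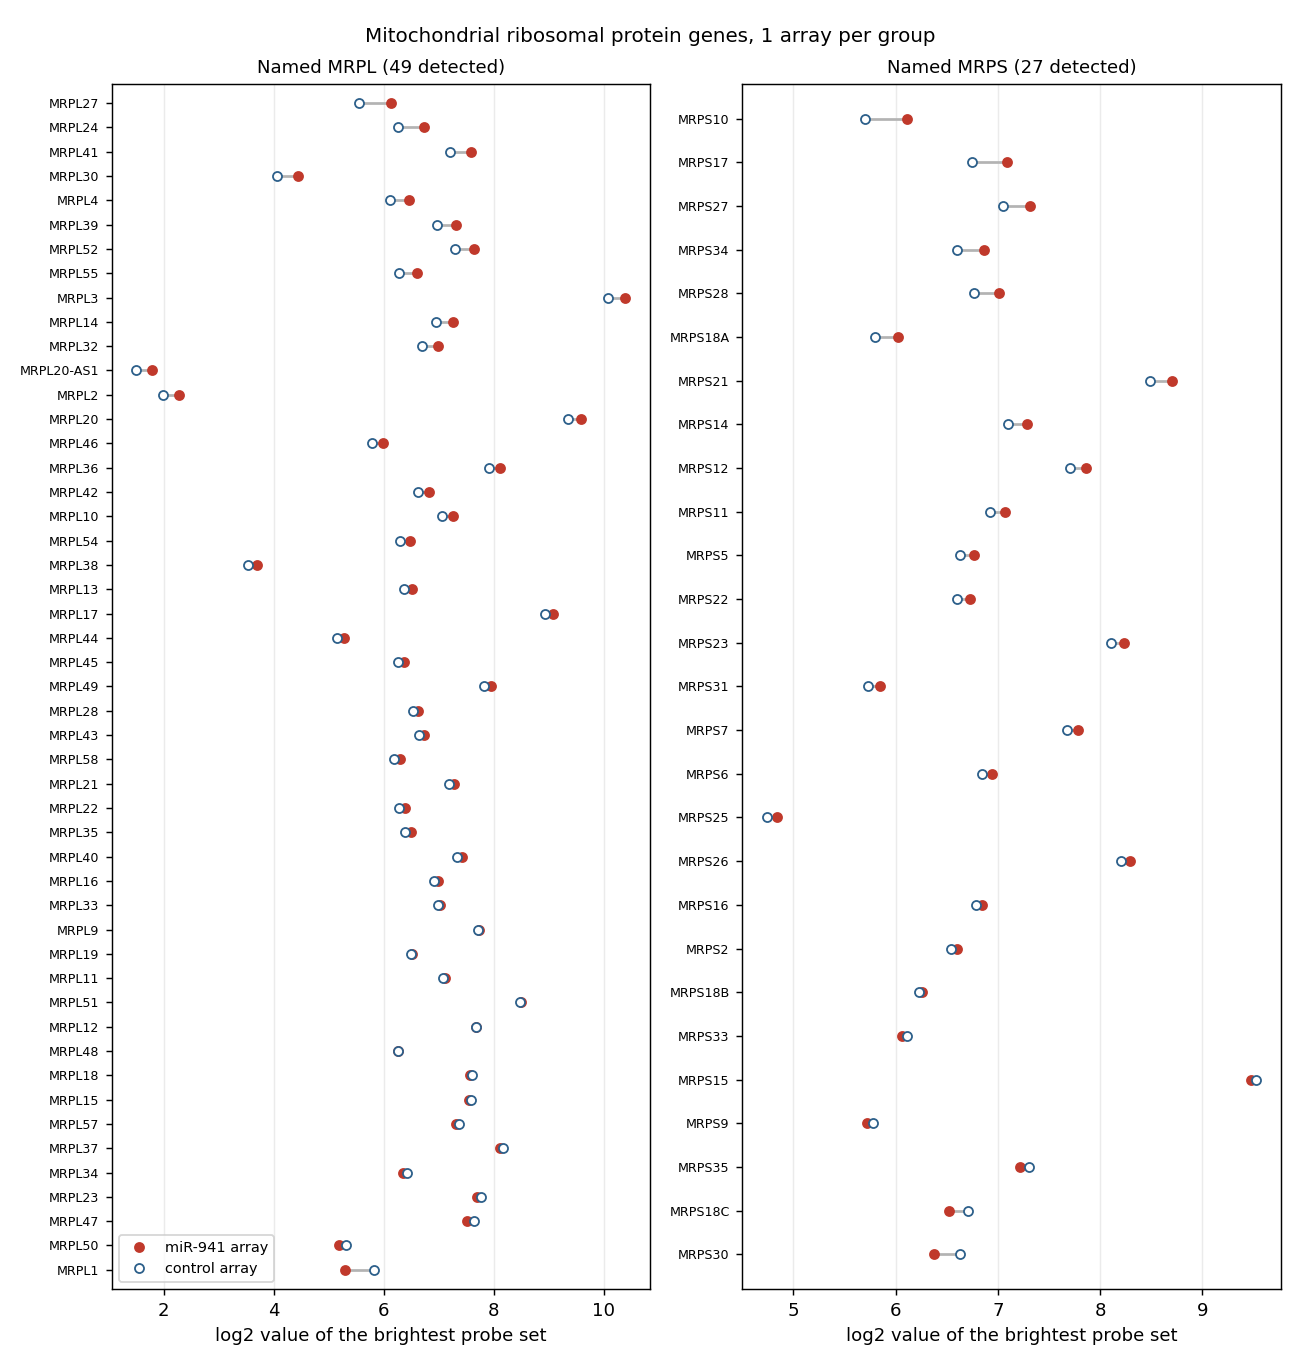
Log2 value of the brightest probe set of each of the 76 detected genes (filled red, miR-941 array; open blue, control array; 1 array per group), named MRPL at left and named MRPS at right, ordered by difference. The red point lies to the right of the blue one for 60 genes and to the left for 15, and the distance between them is short for nearly every gene.

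Differences were small throughout. At 1.2-fold or more, a log2 difference of 0.26, 16 of the 76 genes were higher (21.1%) and 1 was lower, against 16.9% higher and 15.4% lower over all detected genes, and 9.37% higher and 10.6% lower in the same middle range of levels. The share of members past 1.2-fold upward therefore lay near that of all detected genes and above that of genes of similar level. At 1.5-fold, 1 gene was higher, MRPL27, and 0 were lower, where 2.94% and 2.87% of all detected genes passed. No member differed by 2-fold, a size reached in either direction by 0.517% of detected genes. The SD of the differences was 0.17 over the members, 0.21 over the 1708 genes of similar level and 0.30 over all detected genes. Probe sets of the same member differed among themselves by a pooled SD of 0.30 over the 31 genes with 2 or more detected probe sets, and 62 of the 76 differences were smaller than this. That SD is technical, holds differences between transcript forms, and does not stand in for replicate error. It also takes in dim probe sets, such as one of MRPS26 with a difference of 1.13 at a level of 1.29. The 76 differences come from brightest probe sets, 71 of them with a level above 5, so the levels compared are unlike.

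**Figure D2:**
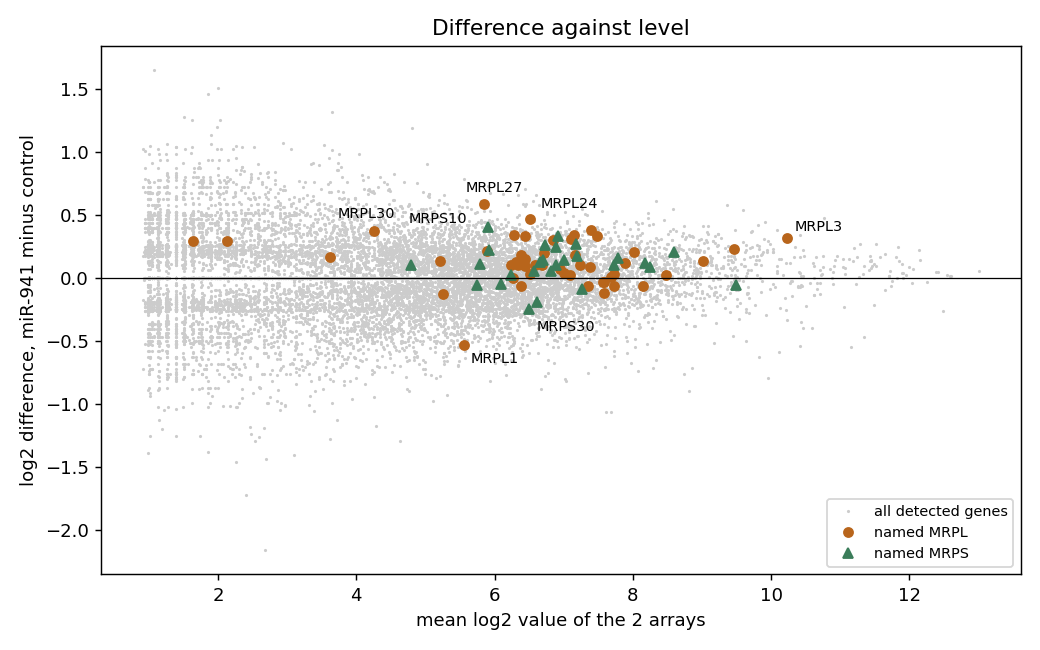
Log2 difference, miR-941 minus control, against the mean log2 value of the 2 arrays for all 13150 detected genes (grey), genes named MRPL (orange circles) and genes named MRPS (green triangles). Members cluster between levels 6 and 8, mostly just above 0; MRPL27 at 0.59 and MRPL1 at -0.53 are the outermost.

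**Figure D3:**
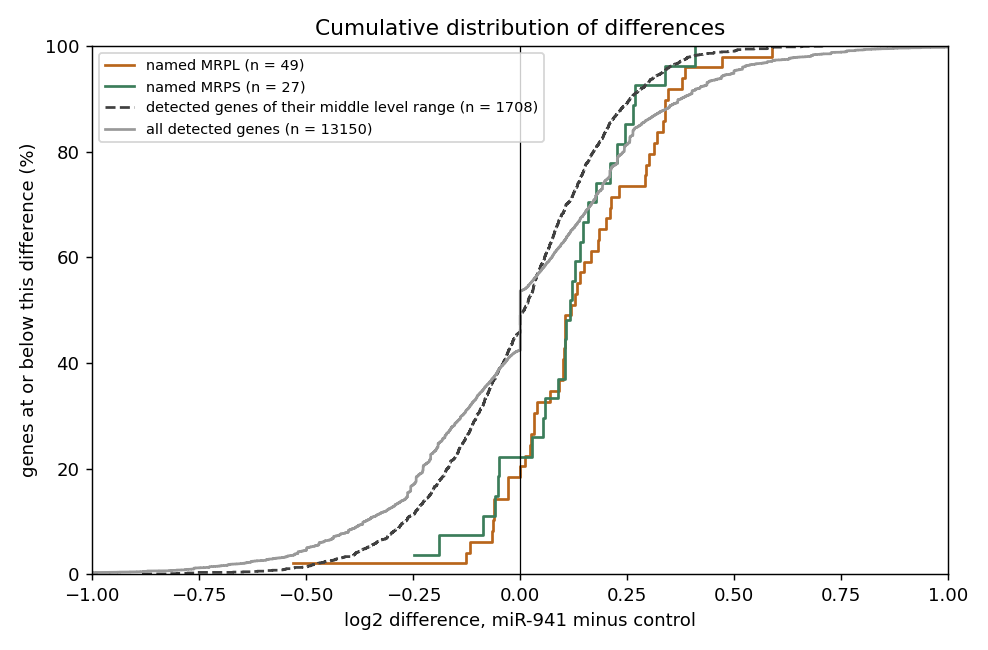
Share of genes at or below each log2 difference, for the 49 detected genes named MRPL, the 27 named MRPS, the 1708 detected genes of their middle level range (dashed) and all 13150 detected genes (grey). Both subunit curves lie to the right of the dashed curve over most of their course, and they cross one another near their medians of 0.12.

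The large and the small subunit did not part in their medians. The median difference was 0.12 for the 49 detected genes named MRPL and 0.12 for the 27 named MRPS, a difference of 0.0033 between the 2 medians. Named MRPL, 39 were higher, 9 lower and 1 equal; named MRPS, 21 were higher and 6 lower. The upper quartile was 0.29 in the large subunit and 0.19 in the small one. At 1.2-fold, 13 of 49 genes named MRPL were higher (26.5%) and 1 was lower, beside 3 of 27 (11.1%) and 0 for MRPS. Over all detected genes 16.9% were higher and 15.4% lower at that size. In the members' middle range of levels these shares were 9.37% and 10.6%. The MRPS share upward thus lay below that of all detected genes and near that of genes of similar level. The 13 genes named MRPL include MRPL20-AS1 (0.29). Without MRPL20-AS1, which read 1.79 on the miR-941 array and 1.498 on the control array, 59 of the 75 protein-coding members were higher and the large subunit median was 0.11. Symbols do not follow the structure in every case: the universal names in the RefSeq synonyms place MRPS30 (mL65) and MRPS18A (mL66) in the large subunit. Counting both there left the small subunit median at 0.12 and the difference of medians at -0.0032 over the protein-coding members.

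Genes whose universal name marks a bacterial counterpart and genes whose name marks mitochondria also gave like medians. Of the detected members, 44 have a universal name starting with u or b, for a bacterial homologue, and 30 one starting with m, for mitochondria. The letter m does not exclude a bacterial relative: MRPS18A (mL66) and MRPS18B (mS40) share a symbol stem with MRPS18C (bS18m). MRPS28 and MRPL20-AS1 carry no such name in that table. Of the 44, 35 were higher and 9 lower, with a median of 0.11. The 30 comprised 23 higher, 6 lower and 1 equal (median 0.12). The outermost values in both directions belonged to proteins with a bacterial homologue.

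Members are described below by their place in the ribosome, starting with the inner core and the interface of the large subunit. The assignment of members to regions rests on the known architecture of the ribosome and was made after their values were seen, so the counts below describe the members and nothing is read from them. MRPL27 (bL27m), which lies near the ends of the transfer RNAs at the peptidyl transferase centre, read 6.13 on the miR-941 array and 5.55 on the control array. This difference of 0.59 was the highest of all members and rested on its single probe set. MRPL4 (uL4m), which lines the exit tunnel, read 6.46 and 6.11 on the miR-941 and control arrays on its brightest probe set, a difference of 0.35. Its other detected probe sets disagreed with that value, at 0.00 and -0.25, so the median over 3 was 0.00. MRPL3 (uL3m), a core protein that is altered in an inherited disorder of oxidative phosphorylation, read 10.4 on the miR-941 array and 10.1 on the control array, a difference of 0.32. MRPL14 (uL14m), which faces the small subunit, read 7.26 and 6.95 in the same order (0.31). MRPL2 (uL2m), which supports the catalytic centre, was dim, at 2.27 and 1.98 (0.29), and both of its probe sets were higher. MRPL16 (uL16m), close to the transfer RNAs, had 6.99 and 6.92 (0.070). All 6 were higher on the miR-941 array on the brightest probe set, 5 of them by 1.2-fold or more, with a median of 0.31. At that size 16.9% of all detected genes were higher, and 9.37% of those in the members' middle range of levels. Because these 6 were grouped after their values were seen, the count is no result about the region. Nor need the 6 be all of its proteins. Members named MRPL that were put in no counted region ran from -0.53 (MRPL1) to 0.38 (MRPL41), with MRPL15 at -0.030 and MRPL19 at 0.032.

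Around the polypeptide exit, where new proteins leave towards the inner membrane, the values lay on both sides of 0. MRPL24 (uL24m) had the second highest difference of all members, 0.47, with 6.74 on the miR-941 array and 6.27 on the control array on its only probe set. MRPL17 (bL17m) had 9.08 and 8.94 on the miR-941 and control arrays (0.14). MRPL45 (mL45), which anchors the ribosome at the inner membrane, had 6.38 and 6.25 (0.13), and MRPL22 (uL22m), at the tunnel wall, 6.38 and 6.28 (0.10). MRPL23 (uL23m) read 7.70 on the miR-941 array and 7.76 on the control array (-0.065). MRPL47 (uL29m) read 7.52 and 7.63 in that order (-0.12). Of these 6 genes, 4 were higher (66.7%) and 2 lower, where 46.3% of all detected genes were higher.

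The stalk, which recruits translation factors, is represented by 3 members. MRPL12 (bL12m), the stalk protein that has also been found with the mitochondrial RNA polymerase, read 7.69 on the miR-941 array and 7.68 on the control array, a difference of 0.010. MRPL11 (uL11m), at its base, had 0.026, and MRPL10 (uL10m), which holds MRPL12, had 0.18 with 7.25 and 7.07 on the miR-941 and control arrays. In the central protuberance, the crown of the large subunit, MRPL46 had 0.21, MRPL38 0.16, MRPL58 0.10, MRPL40 0.090, MRPL48 0.00 and MRPL18 -0.028. MRPL58, also known as ICT1, is a peptidyl-tRNA hydrolase that was taken into the ribosome. MRPL48 read 6.26 on both arrays on its 1 probe set.

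The largest difference downward was in the large subunit as well. MRPL1 (uL1m), the protein of the mobile L1 stalk at the side where transfer RNAs leave, read 5.29 on the miR-941 array and 5.82 on the control array. Its difference of -0.53, on 1 probe set, was lower than that of all but 3.58% of detected genes, and it was the only member lower by 1.2-fold or more. MRPL50 had 5.19 on the miR-941 array and 5.32 on the control array on its brightest probe set (-0.13), while its second one had 0.20. MRPL34 (bL34m) read 6.35 on the miR-941 array and 6.42 on the control array (-0.064), MRPL37 8.12 and 8.18 (-0.061), MRPL57 7.32 and 7.38 (-0.060) and MRPL15 (uL15m) 7.56 and 7.59 (-0.030). With MRPL47, MRPL23 and MRPL18 above, these are the 9 detected genes named MRPL that were lower.

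Further large subunit genes past 1.2-fold were MRPL41, MRPL30, MRPL39, MRPL52, MRPL55 and MRPL32. MRPL41, which has also been described as a partner of the apoptosis regulator BCL2, read 7.59 on the miR-941 array and 7.20 on the control array (0.38), with a second bright probe set at 0.20. MRPL30 (uL30m) had 4.44 and 4.07 on the miR-941 and control arrays on its brightest probe set (0.38), but 2 of its 5 detected probe sets were lower. Their median was 0.11 ± 0.25 (SD over 5 probe sets). MRPL39, a protein related to threonyl-tRNA synthetase, had 7.31 on the miR-941 array and 6.97 on the control array (0.34). MRPL52 had 7.64 and 7.31 in that order (0.34), MRPL55 (bL31m) 6.61 and 6.27 (0.33, with its second probe set lower), and MRPL32 (bL32m) 6.995 and 6.69 (0.30). MRPL32 is cleaved after import by the protease whose loss causes a form of spastic paraplegia. The 16 remaining detected members named MRPL lay between 0.023 (MRPL51) and 0.29 (MRPL20-AS1); among them were MRPL51 (8.50 and 8.48), MRPL20 (9.58 and 9.35, 0.23), MRPL36 (8.12 and 7.91, 0.21) and MRPL49 (7.95 and 7.83, 0.12), each with the miR-941 array first.

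In the small subunit, MRPS10 and MRPS17 had the largest differences upward. MRPS10 (uS10m), a protein of the head, read 6.11 on the miR-941 array and 5.70 on the control array on its brightest probe set, a difference of 0.41. Its other probe sets, nearly as bright, were lower, at -0.16 and -0.12, so MRPS10 had no single direction. MRPS17 (uS17m), in the body, read 7.09 on the miR-941 array and 6.75 on the control array (0.34). MRPS27, a pentatricopeptide repeat protein, had 7.32 and 7.05 in that order (0.27), MRPS34 6.86 and 6.60 (0.26), and MRPS28 7.01 and 6.76 (0.25). MRPS27 was the third and last gene named MRPS past 1.2-fold, and MRPS34 lay just short of that size. MRPS12 (uS12m), which forms part of the decoding centre, read 7.86 on the miR-941 array and 7.70 on the control array (0.16), with 3 of its 4 detected probe sets higher and a median of 0.13 ± 0.39 (SD over 4 probe sets). MRPS22, altered in a combined respiratory chain deficiency, read 6.73 on the miR-941 array and 6.60 on the control array on its brightest probe set (0.13). It was the member with the most concordant set: all 4 detected probe sets were higher, at 0.098 to 0.30, with a median of 0.15 ± 0.089 (SD over 4 probe sets). All 4 carry the suffix _x_at, which marks probes that can bind other transcripts.

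The head and the body of the small subunit are also regions assigned after the values were seen, so nothing is read from their counts. Over all detected genes 46.3% were higher, and 50.7% in the members' middle range of levels. Of 7 head proteins 4 were higher (57.1%) and 3 lower on the brightest probe set, with a median of 0.11. MRPS7 (uS7m) read 7.78 on the miR-941 array and 7.68 on the control array (0.11). MRPS14 (uS14m) read 7.28 on the miR-941 array and 7.10 on the control array on its brightest probe set (0.18), while its second one had -0.18. MRPS35 had 7.22 and 7.30 on the miR-941 and control arrays (-0.086), and MRPS9 (uS9m) and MRPS33 had -0.059 and -0.049. Of 10 proteins of the body and platform 8 were higher (80%) and 2 lower, with a median of 0.12. MRPS21 (bS21m) had 8.70 and 8.49 on the miR-941 and control arrays (0.21), MRPS11 (uS11m) 7.07 and 6.93 (0.15), MRPS5 (uS5m), at the entry of the mRNA, 6.77 and 6.63 (0.14), MRPS6 (bS6m) 6.95 and 6.84 (0.11), MRPS16 (bS16m) 6.85 and 6.79 (0.057) and MRPS2 (uS2m) 6.60 and 6.54 (0.053). The lower pair was MRPS18C (bS18m), at 6.52 on the miR-941 array and 6.71 on the control array (-0.19), and MRPS15 (uS15m), at 9.47 and 9.53 (-0.051). Both detected MRPS15 probe sets were lower, the only member with 2 or more where this held. MRPS30, structurally a large subunit protein, read 6.38 on the miR-941 array and 6.63 on the control array on its brightest probe set (-0.25), while its dimmer probe sets had 0.040 and 0.54.

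Agreement among probe sets was partial. Of the 31 members with 2 or more detected probe sets, 11 were higher on all of them, 1 was lower on all, 14 had probe sets on both sides of 0, and 5 had 1 direction beside equal values. Like shares over all detected genes were not taken, so these counts describe the members only. The brightest probe sets of these 31 genes had a median of 0.13, and their 49 other detected probe sets had a median of 0.086, with 26 higher, 17 lower and 6 equal. By brightest probe set, 46.3% of all detected genes and 50.7% of those in the members' middle range of levels were higher. The share of these 49 probe sets that were higher lay near both. With 3 detected probe sets each, MRPL43 read 6.74 on the miR-941 array and 6.64 on the control array on the brightest (median difference over 3, 0.10), MRPS25 4.85 and 4.74 (0.10), MRPL35 6.49 and 6.39 (0.099) and MRPL19 6.52 and 6.49 (0.032). The median was 0.086 in MRPS5 and -0.060 in MRPL57. MRPL42 read 6.82 on the miR-941 array and 6.62 on the control array on the brightest probe set (0.20), and had -0.28 and -0.27 on the others. MRPS23 read 8.23 on the miR-941 array and 8.11 on the control array on the bright probe set (0.12), and 2.15 and 2.79 on a dim one (-0.64). The widest spread was in MRPS26, whose bright probe set had 0.089 (8.29 on the miR-941 array, 8.20 on the control array). Its dim one had 1.13, with 1.86 and 0.73 in that order, a reading close to the detection level. Brightest probe sets carried the suffix _s_at or _x_at in 48 of the 76 members, and 39 members have at least 1 pseudogene in the RefSeq table, so a part of the signal can come from related transcripts.

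**Figure D4:**
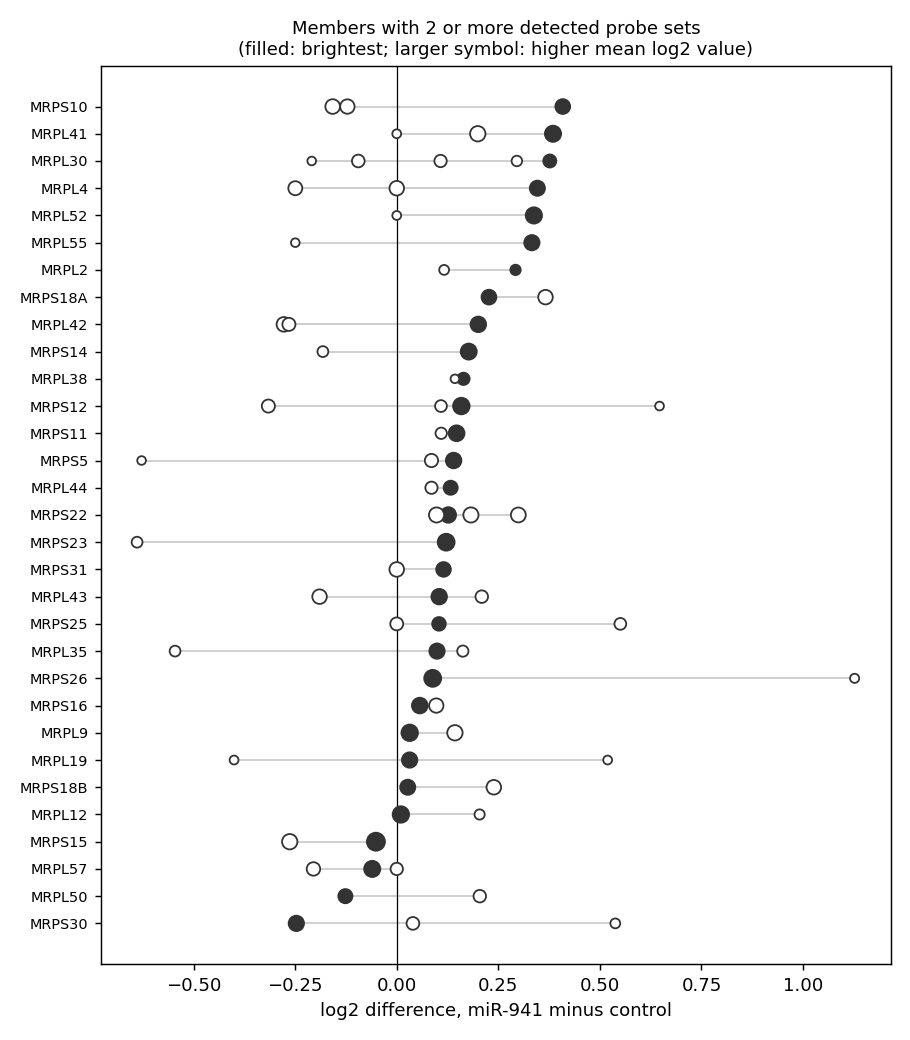
Log2 difference, miR-941 minus control, of every detected probe set of the 31 members with 2 or more (filled, brightest; open, others; symbol size grows with the mean log2 value). Points of 14 genes lie on both sides of the line at 0, and the widest spreads come from small, dim symbols such as that of MRPS26 at 1.13.

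Spearman's rho of the difference was -0.10 on level and -0.14 on gene span over 76 members, which share both hybridisations, so these are descriptions across genes. Over all detected genes the coefficients were -0.041 and -0.10. The members' genes are short, with a median span of 8643 bases in RefSeq against 28837 for all detected genes. Among the 3306 detected genes within the quartiles of the members' spans, 48.3% were higher, with a median of 0.00.

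Matches to 3 factor motifs known from genes of mitochondrial function were sought in the promoters of these genes, and 2 of the 3 were clearly more frequent there. RefSeq windows from 250 bases before to 50 after the gene start (GRCh38.p14) were matched for 68 of the 77 genes. The 68 include the antisense RNA MRPL20-AS1 beside MRPL20, and the windows of both hold the first motif. On either strand, CCGGAAG, the core bound by ETS factors such as GABPA, stood in 29 of the 68 (42.6%), against 10.7% of all 27305 promoter windows and 18.6% of the 10087 windows of detected protein-coding genes. AAGATGG, the core for YY1, stood in 22 (32.4%, against 6.06% and 7.42%). GCATGCGC, a core for NRF1, stood in 6 (8.82%, against 3.27% and 5.37%), too few genes to call it more frequent. The first motif ends with the letters that open the second, so both can match within 1 run. At least 1 of the 3 was found in 43 of 68 members (63.2%), against 18.2% of all windows and 27.9% of those of detected protein-coding genes. Of the 43 members with a match 37 were higher, with a median of 0.12, and of the 25 without one 17 were higher, with a median of 0.10; the difference between them was not tested. A match is a run of letters and does not show that a factor binds. The windows of the members with the 3 highest differences and of the 2 with the lowest are shown with matches in capitals, because they span the range of the group.
MRPL27 (chr17:50373135-50373434, minus strand): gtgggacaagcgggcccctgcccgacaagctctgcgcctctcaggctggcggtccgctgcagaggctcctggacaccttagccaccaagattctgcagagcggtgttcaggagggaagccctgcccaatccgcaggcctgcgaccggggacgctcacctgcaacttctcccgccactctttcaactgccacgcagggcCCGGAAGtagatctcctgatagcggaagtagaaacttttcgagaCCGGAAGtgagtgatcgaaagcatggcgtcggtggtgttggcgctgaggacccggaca
MRPL24 (chr1:156741039-156741338, minus strand): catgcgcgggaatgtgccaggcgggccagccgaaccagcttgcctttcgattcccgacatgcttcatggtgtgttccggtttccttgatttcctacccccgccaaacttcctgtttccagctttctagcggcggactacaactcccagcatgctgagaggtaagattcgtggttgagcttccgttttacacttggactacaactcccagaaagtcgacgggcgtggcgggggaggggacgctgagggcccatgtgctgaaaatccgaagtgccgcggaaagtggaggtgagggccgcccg
MRPS10 (chr6:42217812-42218111, minus strand): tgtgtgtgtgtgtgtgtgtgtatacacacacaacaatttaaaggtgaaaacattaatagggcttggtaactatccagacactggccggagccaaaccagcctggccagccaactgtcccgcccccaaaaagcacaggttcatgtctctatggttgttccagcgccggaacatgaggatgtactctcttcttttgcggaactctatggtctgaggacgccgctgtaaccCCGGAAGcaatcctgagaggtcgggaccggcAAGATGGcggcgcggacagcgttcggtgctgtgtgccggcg
MRPL1 (chr4:77862580-77862879, plus strand): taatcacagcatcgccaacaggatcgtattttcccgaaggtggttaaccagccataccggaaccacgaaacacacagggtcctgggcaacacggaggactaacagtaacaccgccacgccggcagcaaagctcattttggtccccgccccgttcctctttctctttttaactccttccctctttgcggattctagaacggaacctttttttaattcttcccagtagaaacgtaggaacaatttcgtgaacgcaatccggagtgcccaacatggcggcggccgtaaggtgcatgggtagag
MRPS30 (chr5:44808697-44808996, plus strand): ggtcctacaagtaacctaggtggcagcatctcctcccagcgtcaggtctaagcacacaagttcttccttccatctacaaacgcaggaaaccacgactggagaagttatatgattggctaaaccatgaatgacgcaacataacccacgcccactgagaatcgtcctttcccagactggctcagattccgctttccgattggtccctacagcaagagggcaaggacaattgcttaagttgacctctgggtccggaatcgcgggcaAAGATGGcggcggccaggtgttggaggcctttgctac
MRPL27, with the highest difference, holds CCGGAAG starting 52 and 8 bases before the gene start. MRPS10 holds it starting 22 bases before, and AAGATGG from base 10 after. MRPS30, on the lower side, holds AAGATGG from base 14. The windows of MRPL24 and MRPL1 hold no match to these letters, so among these 5 the matches lie at both ends of the range of differences.

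Other genes of mitochondrial translation were described by 5 lists, whose counts can be set beside the 46.3% of all detected genes and the 50.7% of genes of similar level to the members that were higher. The mitochondrial ribosomal proteins with other names were all higher where measured: CHCHD1 had 0.35, PTCD3 0.33 with all 4 probe sets higher, DAP3 0.21 with 1 of 2 lower, and GADD45GIP1 0.21 with all 3 higher. Ribosome assembly and rRNA modification gave 20 higher, 4 lower and 3 equal among 27 detected genes (median 0.16). RBFA, a factor that matures the small subunit, read 3.75 on the miR-941 array and 3.16 on the control array (0.59), and the methyltransferase gene MRM1 1.43 and 0.85 (0.58), near the detection level. On the lower side were the GTPase gene MTG2 (-0.21), with 2 of its 3 probe sets higher, and the helicase gene DHX30 (-0.14), with 2 of 4 higher. Of 14 translation factor genes 12 were higher and 2 lower (median 0.12). MTRFR, of the release factor family, had 0.83, but its median over 3 probe sets was 0.038. The elongation factor gene TSFM had 0.43, MTRF1 -0.089 and the initiation factor gene MTIF3 -0.016.

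For the aminoacyl-tRNA synthetases of mitochondria, which charge transfer RNAs with amino acids, 10 of 15 were higher, 4 lower and 1 equal (median 0.10). EARS2 had 0.58, but its 3 probe sets gave a median of 0.13, and CARS2 had 0.44, but its 2 probe sets, 1 of them lower, gave 0.11, while VARS2 had -0.17 and NARS2 -0.12. Transcription and upkeep of mitochondrial DNA gave 5 of 9 higher (55.6%), 3 lower and 1 equal (median 0.086), a share near those over all detected genes and over genes of the members' level range. Here TEFM, the transcription elongation factor, had 0.58 with both probe sets higher and POLG2 0.45. MTERF1 had -0.28 and SSBP1 -0.20, with 1 of the 2 SSBP1 probe sets higher and a median of 0.23 over both. POLRMT, counted as higher (0.15), had a median of -0.36 over 2 probe sets. POLG (-0.18) was lower on both of its probe sets, with a median of -0.60. TFAM, counted as equal, had a median of 0.12 over 4 probe sets. No difference between these lists was tested.

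**Figure D5:**
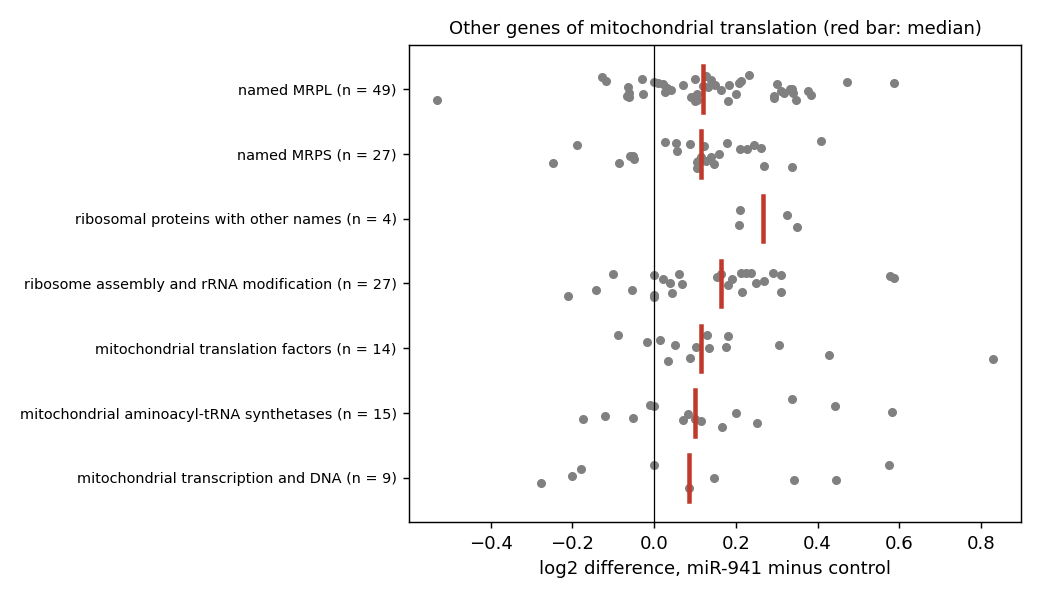
Log2 difference, miR-941 minus control, of each detected gene (grey points, brightest probe set) named MRPL, named MRPS and in 5 lists of mitochondrial translation, with list medians as red bars. Every median lies above 0, from 0.086 for transcription and DNA to 0.27 for the 4 ribosomal proteins with other names, and each list of more than 4 genes also holds values at or below 0.

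By their median, the mitochondrial ribosomal proteins lay between the subunits of respiratory complex I and the cytosolic ribosomal proteins. Complex I, whose mitochondrially encoded subunits these ribosomes make, was taken by symbol alone: NDUFA, NDUFB, NDUFC, NDUFS or NDUFV followed by a digit. Of 32 such detected genes 26 were higher and 6 lower (median 0.22). NDUFB1 had 0.48 and NDUFB11 0.43 at the upper end, and NDUFS4 -0.27 and NDUFV2 -0.23 at the lower. Cytosolic ribosomal proteins had 44 of 51 higher and 7 lower (median 0.071), with RPLP2 at 0.53 and RPL27A at 0.30 highest and RPL8 at -0.15 and RPL31 at -0.091 lowest. At 1.2-fold the counts upward were 16 of 76 for the mitochondrial ribosomal proteins (21.1%), 9 of 32 for complex I (28.1%) and 4 of 51 for the cytosolic ribosomal proteins (7.84%). Over all detected genes 16.9% passed that size upward, and 9.37% in the members' middle range of levels. Median levels differed between the 3 groups, at 6.83, 7.71 and 11.5 in the same order. By the share of genes higher by any amount the order was another one: 78.9%, 81.25% and 86.3%. With 1 array per group none of these orders was tested.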

How the data were processed

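The authors quantified the arrays (Affymetrix Human Genome U133 Plus 2.0) with R's RMA package, as the design text of the series states, and per the labels ran 1 sample on each; affy and MAS5 also appear in the submitters' processing notes, with no role given. The deposited values, 1 per probe set, were taken as log2: they reach 13.7, above 11.1, the natural logarithm of the largest 16-bit reading. Centring is not stated; the array medians were 0.98 (miR-941) and 0.92 (control), and 11808 of 54675 probe sets held the same value on both. The number of arrays limits the precision. Of the probe sets, 41091 had 1 symbol in the platform table, updated through Entrez identifiers to RefSeq (GRCh38.p14). Only these were used. Differences were computed in Python 3.11.15 with pandas 2.3.3. On simulated differences the summary code returned the known shifts put in, which checks the code and not the values of these arrays. There is no test, so counts past 1.2-, 1.5- and 2-fold and medians stand beside the same over all detected genes. All members could be named; in full come the 10 outermost differences on each side, the 5 brightest of each subunit, members with 3 or more detected probe sets or with probe sets on both sides of 0, and of each other list the 2 highest and 2 lowest. POLRMT, POLG and TFAM are named besides, for their several probe sets. Regions of the ribosome were assigned after values were seen. Members and lists were chosen with earlier results of these data known. Paralogues and readthrough genes such as RPL22L1 were left out of the cytosolic ribosomal proteins.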

Additional observations from a re-analysis of the deposited data

Results flagged for a closer look

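Probe sets annotated with several symbols took no part in the comparison, and 3 of the 4 that name a mitochondrial ribosomal gene read above the control array on the miR-941 array. The probe set shared by MRPS24 and the readthrough gene URGCP-MRPS24 read 9.85 on the miR-941 array and 9.73 on the control array, a difference of 0.12. The one shared by MRPL53 and CCDC142 read 6.48 and 6.35 in that order (0.13), and the one shared by the pseudogene MRPS31P5 and THSD1 read 2.49 and 2.38 (0.11). The fourth, shared by MRPL51 and SPTLC1, had 5.03 and 5.12 (-0.086). Each of these differences is smaller than the pooled SD of 0.30 between probe sets of 1 gene, an SD that takes in dim probe sets. Which of the named genes gave the signal was not tested.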

How the results depend on the processing

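No paired analysis was possible because there is a single array on either side; leaving one out would end the comparison. The median difference of the mitochondrial ribosomal protein genes (0.12) lay between 0.10 and 0.12 under 11 other ways of processing (probe set choice, level filter, scaling and membership) and with every detected probe set counted on its own, the last chosen after seeing the data; both subunit medians lay between 0.10 and 0.13. The difference between subunit medians was at most 0.015 in size and took either sign, so it has no direction. Leaving out _x_at and _s_at probe sets left 41 members, of which 28 were higher (68.3%, against 45.2% of all genes under that setting) and 5 were higher by 1.2-fold or more (12.2%, against 18.3% of all genes); fewer genes are measured there. Counting as higher only members whose several detected probe sets were all higher, also chosen after seeing the data, left 11 higher of 31 members. The same share over all detected genes was not taken, so this count cannot be set against it. Means or medians over probe sets left 11 members past 1.2-fold upward. For 3 of the members past 1.2-fold the direction turned: MRPL30 had -0.095 and MRPL4 -0.25 without _x_at and _s_at probe sets, and MRPS10 had -0.12 as the median over its probe sets. MRPS30, lower on its brightest probe set, had 0.11 as the mean and 0.040 as the median over its probe sets. The members' share past 1.2-fold upward, 14.5% with means over probe sets, was then close to the 14.9% of all genes.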
